A study of Mus musculus with 12 samples.

Results

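The Hoxa genes lie side by side on mouse chromosome 6 and encode homeobox transcription factors. Of these, 8 were followed here: Hoxa2, Hoxa3, Hoxa4, Hoxa5, Hoxa7, Hoxa9, Hoxa10 and Hoxa11. The rule that defines them uses gene symbols and no measured value, and their readout is every probe set of the array annotated to 1 of these symbols and to no other gene. These are 8 of 18193 gene symbols on the array, with 15 probe sets among the 45037 that were not array controls. A probe set was tested if 3 or more of the 12 arrays gave it a signal higher than the 40th percentile of that array. This left 31726 probe sets of 14005 symbols, with 13 of the 15 Hoxa probe sets and at least 1 for each of the 8 genes.

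Hox proteins set position along the body axis, and the order of their genes along the chromosome follows the order in which they act. In blood formation, Hoxa genes are active in stem and progenitor cells and are turned down as cells mature, and Hoxa9 together with its partner Meis1 is high in many acute leukaemias. MEIS1 is a homeodomain protein of the TALE class that binds DNA beside HOX and PBX proteins, and NUP98-HOXD13, the leukaemia fusion that every culture here carried, is known for raising Hoxa genes in marrow cells.

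The cells were bone marrow of (C57Bl/6Ly-Pep3b x C3H/HeJ) F1 mice that had been given 5-FU, and they had been transduced with NUP98-HOXD13 (ND13-GFP or ND13pac) and grown in IL-3, IL-6 and SCF before a second virus was added. The groups differ in what that virus brought: whole MEIS1 (MEIS1-WT), MEIS1 lacking the homeodomain (MEIS1-deltaHD), M33-MEIS1, or the vector alone (MIY control, which encodes YFP). M33 is what earlier mouse work called Cbx2, which belongs to the Polycomb group, and the labels say no more about that construct. Each group had 3 arrays from sorted cells, which the labels describe as independent experiments, so p-values measure the spread between these arrays. The viruses were passed on by growth with irradiated E86 producer cells, a fibroblast line, and all constructs were expressed in mixed cultures, in which fewer cells of a type and less RNA per cell cannot be told apart.

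Values are probe set signals on a linear scale, on which each array had a trimmed mean of 100, and group means are given ± the SD of 3 arrays. Differences are on the scale of log2(signal + 16), construct minus MIY control unless stated otherwise, and a probe set passed at a Benjamini-Hochberg adjusted p below 0.05 in limma over all 31726 probe sets. The median signal of an array was 14.2 to 15.3 with MEIS1-WT, 13.1 to 13.9 with MEIS1-deltaHD, 14 to 16 with M33-MEIS1, and 17.3 to 21.6 in MIY control. The median difference of all probe sets against control was accordingly -0.10 (MEIS1-WT), -0.14 (MEIS1-deltaHD) and -0.12 (M33-MEIS1), and a rescaling of the arrays to equal medians moved it by 0.23 (MEIS1-WT), 0.31 (MEIS1-deltaHD) and 0.22 (M33-MEIS1). All 3 comparisons with control share the control arrays. Across probe sets, the correlation between arrays was 0.9799 to 0.9879 within groups and 0.9432 to 0.9874 between groups.

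The Hoxa genes did not move together. Hoxa7 was higher with all 3 constructs than in MIY control, Hoxa4 was higher with MEIS1-WT and MEIS1-deltaHD, and Hoxa5, read by 1448926_at, was lower with all 3. The Hoxa5 difference passed with M33-MEIS1 alone when arrays were scaled to equal medians. Hoxa9 was modestly lower with all 3 constructs under the authors' scaling. When arrays were scaled to equal medians, no Hoxa9 difference passed with any construct, and the sign turned with MEIS1-WT and MEIS1-deltaHD. With the settings above and the authors' scaling, Hoxa10, Hoxa2, Hoxa3 and Hoxa11 did not pass in any comparison.

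With MEIS1-WT, 2 of the 13 Hoxa probe sets passed as higher and 3 as lower (38.5%), where 31% of all probe sets passed, 13.1% as higher and 17.8% as lower. With MEIS1-deltaHD the counts were 2 higher and 3 lower, where 34.5% of all probe sets passed, 13.8% as higher and 20.8% as lower. With M33-MEIS1 they were 1 higher and 4 lower, where 28.9% of all probe sets passed, 11.8% as higher and 17.1% as lower. When arrays were scaled to equal medians, 3 Hoxa probe sets passed as higher and 0 as lower with MEIS1-WT, 2 and 0 with MEIS1-deltaHD, and 1 and 1 with M33-MEIS1. Under the authors' scaling, the share of Hoxa probe sets that passed was near that of the whole array. The arrays of a construct and of control did not overlap for 7 Hoxa probe sets with MEIS1-WT, where 41.9% of all probe sets did not overlap, for 8 with MEIS1-deltaHD (47% of all) and for 5 with M33-MEIS1 (38.9% of all). The median difference of the 13 was -0.06 (MEIS1-WT), -0.14 (MEIS1-deltaHD) and -0.22 (M33-MEIS1), against the medians over all probe sets given above. The count for MEIS1-WT was the least firm: it was 1 without MIY control replicate 1, 2 without MEIS1-WT replicate 2 or MIY control replicate 3, and 3 without MEIS1-WT replicate 3. With MEIS1-deltaHD, 1 was higher without MEIS1-deltaHD replicate 2 and 5 were lower without MIY control replicate 2.

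**Figure D1:**
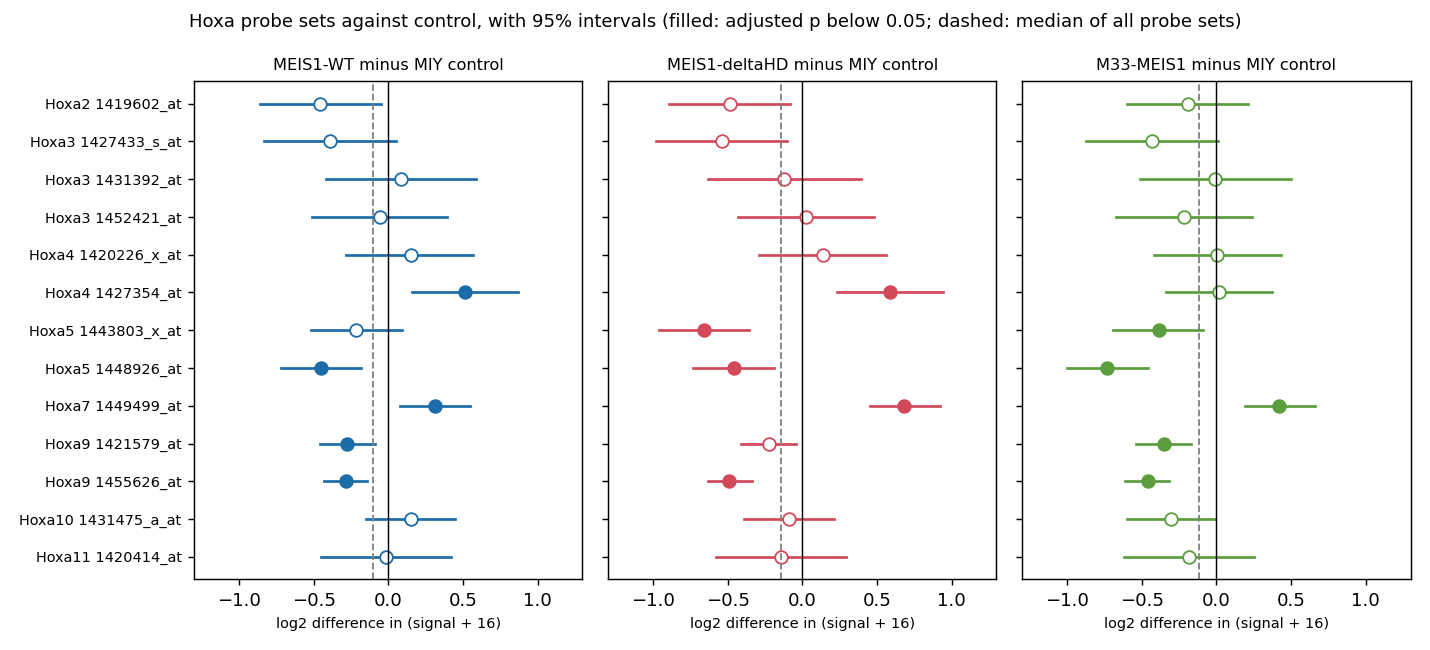
Log2 differences in (signal + 16) of the 13 kept Hoxa probe sets between each construct and MIY control, with 95% intervals from limma. Filled points passed at an adjusted p below 0.05, and the dashed line is the median of all 31726 probe sets. Hoxa7 lies right of 0 in all 3 panels and Hoxa4 1427354_at in the first 2, while Hoxa5 1448926_at lies left of 0. Hoxa9 also lies left of 0 here, but after median scaling no Hoxa9 difference passed, and those with MEIS1-WT and MEIS1-deltaHD lay right of 0.

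Promoter sequences of 7 of the 8 genes were available from RefSeq, from 250 bases before to 50 bases after the start, on build GRCm38.p6. They were searched on both strands for the MEIS core TGACAG, the PBX-HOX composite TGATNNAT and the PBX-MEIS composite, which holds the MEIS core. The promoters of Hoxa7, which rose, of Hoxa9, the member best known as a partner of MEIS1, and of Hoxa2, which held the most matches, are shown 5′ to 3′ on the minus strand, with matches in capitals.
Hoxa7: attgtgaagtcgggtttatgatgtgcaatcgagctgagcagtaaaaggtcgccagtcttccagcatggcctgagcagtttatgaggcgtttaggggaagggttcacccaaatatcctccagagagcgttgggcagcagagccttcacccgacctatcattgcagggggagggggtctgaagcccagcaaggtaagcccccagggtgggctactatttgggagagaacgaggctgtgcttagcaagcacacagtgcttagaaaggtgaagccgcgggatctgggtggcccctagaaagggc
Hoxa9: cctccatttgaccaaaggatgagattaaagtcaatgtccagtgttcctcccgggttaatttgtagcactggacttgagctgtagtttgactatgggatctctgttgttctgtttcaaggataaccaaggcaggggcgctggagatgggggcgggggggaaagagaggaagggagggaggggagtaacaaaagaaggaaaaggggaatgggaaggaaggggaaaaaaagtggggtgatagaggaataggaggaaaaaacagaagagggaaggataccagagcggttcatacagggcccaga
Hoxa2: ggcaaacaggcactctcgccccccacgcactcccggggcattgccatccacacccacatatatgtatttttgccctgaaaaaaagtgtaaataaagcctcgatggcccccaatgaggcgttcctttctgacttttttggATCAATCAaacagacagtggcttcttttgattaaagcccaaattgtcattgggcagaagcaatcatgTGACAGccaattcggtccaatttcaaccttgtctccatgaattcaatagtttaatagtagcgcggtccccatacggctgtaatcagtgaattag
These windows are chr6:52218524-52218823 for Hoxa7, chr6:52227321-52227620 for Hoxa9 and chr6:52164782-52165081 for Hoxa2, with a G and C content of 55.7%, 49.7% and 45.7%. Hoxa7 and Hoxa9 held none of the 3 motifs in this window. Hoxa2 held the MEIS core on its own strand, with its first base at -44, and the PBX-HOX composite on the other strand, read here as ATCAATCA from -111; the 2 matches do not overlap. Hoxa3, not shown, held the MEIS core on the other strand from -13. Among 32851 promoters of the same length, 19.2% held the MEIS core, 8.85% the PBX-HOX composite and 0.222% the PBX-MEIS composite, so a match in 2 of 8 Hoxa entries is near the common share.

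Hoxa7, a gene activated together with Meis1 in mouse leukaemias, had signals of 180.0, 239.8 and 218 with MEIS1-WT, of 314, 262 and 259.7 with MEIS1-deltaHD and of 239.6, 255 and 196 with M33-MEIS1, against 172, 170.3 and 159 in MIY control. Every construct array was above every control array, and MEIS1-deltaHD replicate 1 was the highest. Hoxa7 averaged 279 ± 31.1 with MEIS1-deltaHD and 167 ± 6.9 in MIY control (SD, n = 3 each), a difference of 0.68 (95% interval 0.45 to 0.92, adjusted p = 4.58e-05). It averaged 230.3 ± 30.3 with M33-MEIS1, a difference of 0.42 (0.19 to 0.66, adjusted p = 0.00658). Both held under each of the 16 alternatives tried. It averaged 212 ± 30.2 with MEIS1-WT, a difference of 0.31 (0.08 to 0.55, adjusted p = 0.0389). That call was lost without MEIS1-WT replicate 2 (0.23, adjusted p = 0.199) or 3 (0.29, adjusted p = 0.102), and without MIY control replicate 1 (0.33, adjusted p = 0.064), 2 (0.33, adjusted p = 0.0574) or 3 (0.28, adjusted p = 0.102). It was also lost without the filter (adjusted p = 0.0584) or the intensity trend (adjusted p = 0.0999), though it remained positive in each case.

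Hoxa9, the HOX factor most closely tied to growth of myeloid progenitors and leukaemia cells, was read by a pair of probe sets. With 1455626_at the signals were 1877, 1881 and 1837 with MEIS1-WT, 1537, 1663 and 1657 with MEIS1-deltaHD and 1651, 1734 and 1568 with M33-MEIS1, against 2421, 2207 and 2208 in MIY control. All 9 construct arrays were below all 3 control arrays, and the MEIS1-WT arrays were above those of the other constructs. The difference was -0.29 (MEIS1-WT, SE 0.0696, adjusted p = 0.00269), -0.49 (MEIS1-deltaHD, adjusted p = 6.88e-06) and -0.46 (M33-MEIS1, adjusted p = 2e-05), and no array left out ended a call. Relative to the median difference of all probe sets these are -0.18 (MEIS1-WT), -0.34 (MEIS1-deltaHD) and -0.34 (M33-MEIS1). Arrays scaled to equal medians gave 0.08 (MEIS1-WT, adjusted p = 0.66), 0.01 (MEIS1-deltaHD, adjusted p = 0.94) and -0.10 (M33-MEIS1, adjusted p = 0.57), so none of the 3 passed there. With MEIS1-deltaHD and M33-MEIS1 the call held under the other 15 of the 16 alternatives. Scaling to equal 75th percentiles, chosen after seeing the data, gave -0.13 (MEIS1-WT, adjusted p = 0.175), -0.32 (MEIS1-deltaHD, adjusted p = 0.00105) and -0.32 (M33-MEIS1, adjusted p = 0.00121).

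With the second Hoxa9 probe set, 1421579_at, the signals were 277, 317 and 329.7 with MEIS1-WT, 333, 313 and 309 with MEIS1-deltaHD and 286, 274 and 312 with M33-MEIS1, against 379.9, 349 and 398 in MIY control. Here too the construct arrays lay below all control arrays. M33-MEIS1 passed (-0.35, adjusted p = 0.00456), and so did MEIS1-WT (-0.28, adjusted p = 0.0217), while MEIS1-deltaHD was at -0.23 (adjusted p = 0.0551). The order of the constructs differs between the 2 probe sets. The MEIS1-WT call was lost without MEIS1-WT replicate 1 (-0.20, adjusted p = 0.126), MIY control replicate 1 (-0.27, adjusted p = 0.0616) or MIY control replicate 3 (-0.23, adjusted p = 0.0812), and MEIS1-deltaHD passed without MIY control replicate 2 (-0.28, adjusted p = 0.032). After median scaling the differences were 0.07 (MEIS1-WT, adjusted p = 0.737), 0.26 (MEIS1-deltaHD, adjusted p = 0.13) and -0.01 (M33-MEIS1, adjusted p = 0.973).

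**Figure D2:**
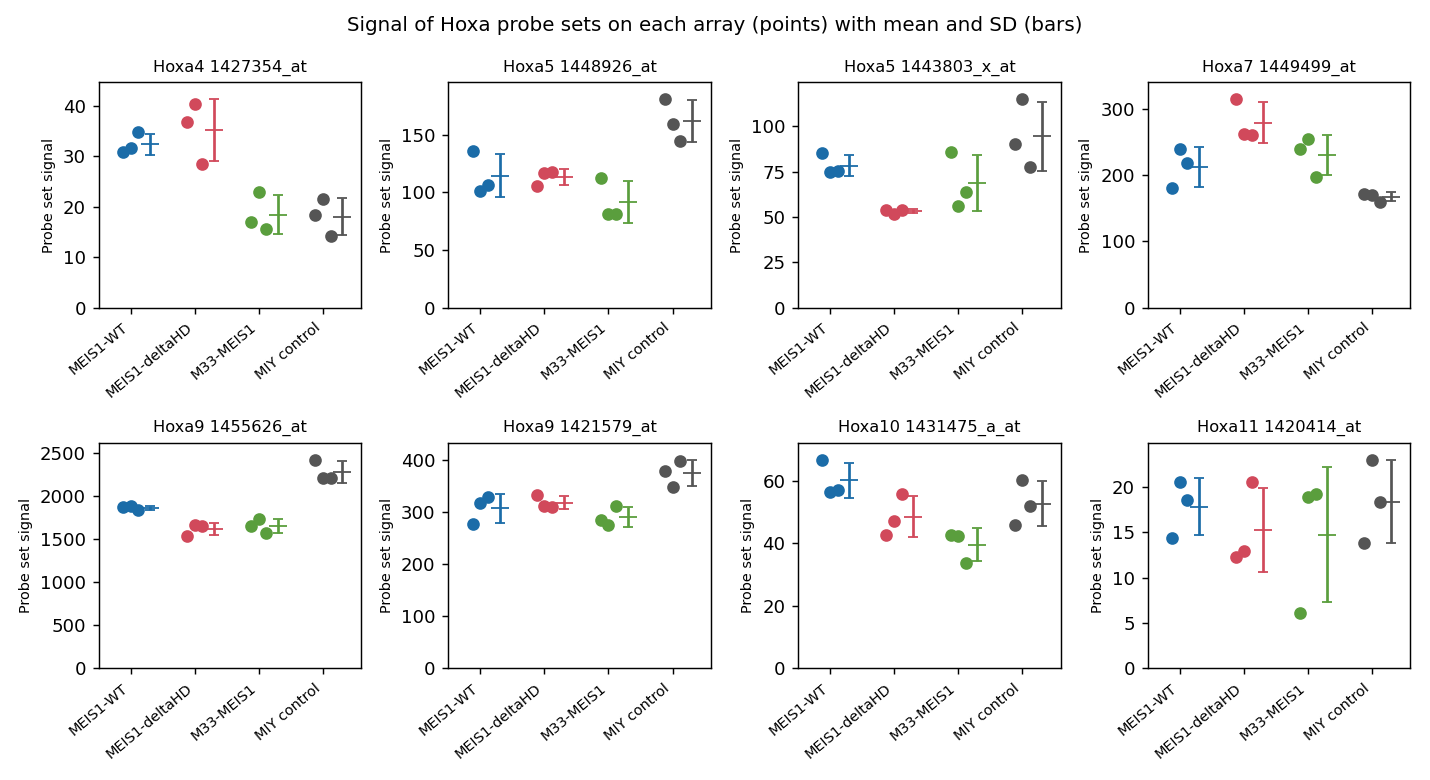
Signal of 8 Hoxa probe sets on each array (linear axis from 0), with the 3 constructs left of MIY control. Points are single arrays, and the bars give the mean and SD of 3 arrays. Hoxa7 is lowest in MIY control, at 159 to 172, and Hoxa9 1455626_at is highest there under the authors' scaling, at 2207 to 2421. After median scaling no Hoxa9 difference passed, and the direction was not kept with MEIS1-WT and MEIS1-deltaHD.

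Hoxa5, which shapes the choice between myeloid and erythroid fates, also had a pair of probe sets. With 1448926_at the signals were 136, 101 and 106 with MEIS1-WT, 105, 116 and 118 with MEIS1-deltaHD and 112, 81.1 and 81.4 with M33-MEIS1, against 181, 159.7 and 145 in MIY control. The construct arrays again lay below every control array. Hoxa5 averaged 91.6 ± 17.9 with M33-MEIS1 and 162 ± 18.3 in MIY control (SD, n = 3 each), a difference of -0.73 (SE 0.13, adjusted p = 0.000145) that held under all 16 alternatives, among them median scaling (-0.41, adjusted p = 0.0406). It fell by 0.45 with MEIS1-WT (adjusted p = 0.0101) and by 0.46 with MEIS1-deltaHD (adjusted p = 0.00813). Those calls were lost after 75th percentile scaling (-0.31, adjusted p = 0.0751, with MEIS1-WT and -0.30, adjusted p = 0.0793, with MEIS1-deltaHD) and after median scaling (-0.12, adjusted p = 0.616, with MEIS1-WT and -0.01, adjusted p = 0.984, with MEIS1-deltaHD). They were also lost without MIY control replicate 1 (-0.37, adjusted p = 0.0632, with MEIS1-WT and -0.38, adjusted p = 0.0523, with MEIS1-deltaHD), and the call for MEIS1-WT without MEIS1-WT replicate 2 (-0.38, adjusted p = 0.0608).

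The second Hoxa5 probe set, 1443803_x_at, read 85.2, 74.9 and 75.2 with MEIS1-WT, 54.0, 51.9 and 54.1 with MEIS1-deltaHD and 86.0, 56.2 and 63.8 with M33-MEIS1, against 90.4, 115 and 77.9 in MIY control. It is of the class that can share sequence with other transcripts (the suffix _x_at), so its signal need not come from Hoxa5 alone. Only MEIS1-deltaHD lay apart from the control arrays, at 53.3 ± 1.24 against 94.5 ± 19.0 (SD, n = 3 each), a difference of -0.66 (adjusted p = 0.000977; -0.24, adjusted p = 0.24, after median scaling). MEIS1-WT differed by -0.21 (adjusted p = 0.289) and overlapped the control arrays. M33-MEIS1 overlapped them too, and its difference of -0.39 (adjusted p = 0.0494) passed under 3 of 15 alternatives. Without M33-MEIS1 replicate 2 it was -0.28 (adjusted p = 0.218) and without replicate 3 -0.35 (adjusted p = 0.12), while without MIY control replicate 1 it was -0.41 (adjusted p = 0.0833) and without replicate 2 -0.26 (adjusted p = 0.254).

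Hoxa4, whose overexpression expands blood progenitors, had signals with 1427354_at of 30.8, 31.6 and 34.7 with MEIS1-WT, of 36.8, 40.4 and 28.4 with MEIS1-deltaHD and of 16.9, 22.9 and 15.5 with M33-MEIS1, against 18.3, 21.6 and 14.2 in MIY control. All 6 arrays of the first 2 constructs were above all 6 of M33-MEIS1 and control, which overlapped each other. Hoxa4 averaged 35.2 ± 6.15 with MEIS1-deltaHD and 18.1 ± 3.73 in MIY control (SD, n = 3 each), a difference of 0.59 (SE 0.171, adjusted p = 0.00965), lost without MEIS1-deltaHD replicate 2 (0.51, adjusted p = 0.0535). It averaged 32.4 ± 2.08 with MEIS1-WT, a difference of 0.51 (adjusted p = 0.0257), and with M33-MEIS1 the difference was 0.02 (adjusted p = 0.956). The MEIS1-WT call was lost without MEIS1-WT replicate 2 (0.52, adjusted p = 0.0558) or 3 (0.48, adjusted p = 0.0776), without MIY control replicate 1 (0.52, adjusted p = 0.0534) or 3 (0.43, adjusted p = 0.101), and without the filter (adjusted p = 0.0561). Both positive differences grew after median scaling, to 0.71 with MEIS1-WT (adjusted p = 0.00216) and 0.88 with MEIS1-deltaHD (adjusted p = 0.000156). The second Hoxa4 probe set, 1420226_x_at, was dim, with means of 9.09 (MEIS1-WT), 8.94 (MEIS1-deltaHD) and 6.75 (M33-MEIS1), against 6.75 in MIY control, and did not pass.

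Hoxa10, which like Hoxa9 drives progenitor expansion when raised, had signals with 1431475_a_at of 66.6, 56.4 and 57.0 with MEIS1-WT, of 42.8, 47.0 and 55.8 with MEIS1-deltaHD and of 42.7, 42.3 and 33.5 with M33-MEIS1, against 45.8, 60.1 and 51.9 in MIY control. The M33-MEIS1 arrays were below those of control, and the other constructs overlapped it. The differences were 0.15 (MEIS1-WT, adjusted p = 0.477), -0.09 (MEIS1-deltaHD, adjusted p = 0.673) and -0.30 (M33-MEIS1, adjusted p = 0.124). After median scaling MEIS1-WT was at 0.43 and passed (adjusted p = 0.0397). The other Hoxa10 probe set, 1446408_at, was above the 40th percentile on 1 array and was not tested.

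Hoxa2 and Hoxa3, best known from the hindbrain and the pharyngeal arches, were dim. Hoxa2 read 11.4, 12.05 and 12.8 with MEIS1-WT, 12.7, 12.8 and 9.25 with MEIS1-deltaHD and 13.7, 20.2 and 19.6 with M33-MEIS1, against 31.8, 15.0 and 22.5 in MIY control. The arrays of the first 2 constructs were below every control array, while M33-MEIS1 overlapped control. The differences were -0.46 (MEIS1-WT, adjusted p = 0.0803), -0.48 (MEIS1-deltaHD, adjusted p = 0.058) and -0.19 (M33-MEIS1, adjusted p = 0.508). Without MIY control replicate 2, the lowest control array, MEIS1-WT passed (-0.61, adjusted p = 0.0308) and so did MEIS1-deltaHD (-0.64, adjusted p = 0.0222). With all arrays but no intensity trend, both passed as well (MEIS1-WT adjusted p = 0.0379, MEIS1-deltaHD adjusted p = 0.026). Hoxa3 1427433_s_at averaged 19.6 ± 1.4 (MEIS1-WT), 16.6 ± 6.36 (MEIS1-deltaHD) and 19.4 ± 9.22 (M33-MEIS1), and 31.6 ± 11.6 in MIY control (SD, n = 3 each). The differences were -0.39 (MEIS1-WT, adjusted p = 0.177), -0.54 (MEIS1-deltaHD, adjusted p = 0.0543) and -0.43 (M33-MEIS1, adjusted p = 0.14). It passed with MEIS1-deltaHD without MEIS1-deltaHD replicate 1 (-0.69, adjusted p = 0.0314) or MIY control replicate 1 (-0.64, adjusted p = 0.0463), and with M33-MEIS1 without M33-MEIS1 replicate 3 (-0.63, adjusted p = 0.0372). With all arrays and 64 added to the signal, it also passed with MEIS1-deltaHD (-0.24, adjusted p = 0.0487).

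Hoxa3 1431392_at and 1452421_at did not pass, with group means of 8.29 to 12.4 and 14.8 to 20.1, and the remaining Hoxa3 probe set, 1429398_at, was above the 40th percentile on 0 arrays. Hoxa11, a gene of limb and kidney development, averaged 17.8 ± 3.12 (MEIS1-WT), 15.2 ± 4.6 (MEIS1-deltaHD) and 14.7 ± 7.46 (M33-MEIS1), and 18.4 ± 4.58 in MIY control. Its groups overlapped and it did not pass. At signals this low the added 16 holds log2 differences down.

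Between the constructs, limma passed 0 of the 13 Hoxa probe sets in each comparison. For MEIS1-deltaHD minus MEIS1-WT, 4.53% of all probe sets passed, and 3 Hoxa probe sets had an unadjusted p below 0.05, where 15.4% of all did. For M33-MEIS1 minus MEIS1-WT, 5.54% of all passed, and 4 Hoxa probe sets had an unadjusted p below 0.05, where 16.5% of all did. For M33-MEIS1 minus MEIS1-deltaHD the background was 0.492%, with 3 Hoxa probe sets at an unadjusted p below 0.05 and 10.5% of all. The widest gaps were those of Hoxa4, Hoxa10, Hoxa5 1443803_x_at and Hoxa7. Hoxa4 1427354_at was at -0.49 in M33-MEIS1 minus MEIS1-WT (95% interval -0.85 to -0.14, adjusted p = 0.107) and at -0.57 in M33-MEIS1 minus MEIS1-deltaHD (-0.93 to -0.22, adjusted p = 0.178), without overlap of arrays. Hoxa10 1431475_a_at was at -0.46 in M33-MEIS1 minus MEIS1-WT (-0.75 to -0.16, adjusted p = 0.0707). Hoxa5 1443803_x_at was at -0.44 in MEIS1-deltaHD minus MEIS1-WT (-0.74 to -0.14, adjusted p = 0.0927), without overlap of arrays, and passed in a fit of those groups alone (adjusted p = 0.0383).

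Hoxa7 was at 0.37 in MEIS1-deltaHD minus MEIS1-WT (95% interval 0.14 to 0.61, adjusted p = 0.066), and all 3 MEIS1-deltaHD arrays were above the MEIS1-WT arrays. It passed under median scaling (0.50, adjusted p = 0.0444), under 75th percentile scaling (0.39, adjusted p = 0.0468), in a fit of those groups alone (adjusted p = 0.0418) and without MEIS1-WT replicate 2 (0.46, adjusted p = 0.044). Hoxa9 1455626_at was at -0.20 in the same comparison (-0.35 to -0.06, adjusted p = 0.114) and passed after quantile normalization (-0.23, adjusted p = 0.0365). M33-MEIS1 and MEIS1-deltaHD were close for Hoxa9, with a difference of 0.03 (adjusted p = 0.936). An adjusted p above the threshold does not show that the constructs act alike on these genes.

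Ratios of Hoxa signals within an array do not change when all signals of an array are multiplied by 1 factor, and are given as a description. The ratio of Hoxa7 to Hoxa9 1455626_at was 0.0959, 0.127 and 0.119 with MEIS1-WT, 0.205, 0.157 and 0.157 with MEIS1-deltaHD and 0.145, 0.147 and 0.125 with M33-MEIS1, against 0.0709, 0.0771 and 0.072 in MIY control. All construct arrays were above all control arrays, and MEIS1-deltaHD was above the other constructs. The ratio of Hoxa7 to Hoxa5 1448926_at was 1.32 to 2.37 with MEIS1-WT, 2.21 to 2.99 with MEIS1-deltaHD and 2.13 to 3.14 with M33-MEIS1, against 0.948 to 1.1 in MIY control, again without overlap. The ratio of Hoxa5 to Hoxa9 was 0.0538 to 0.0724 (MEIS1-WT), 0.0684 to 0.0709 (MEIS1-deltaHD) and 0.0468 to 0.068 (M33-MEIS1), against 0.0655 to 0.0747 in MIY control, and these overlapped. A ratio that differs shows that a pair of genes moved unequally, and not which of them moved.

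**Figure D3:**
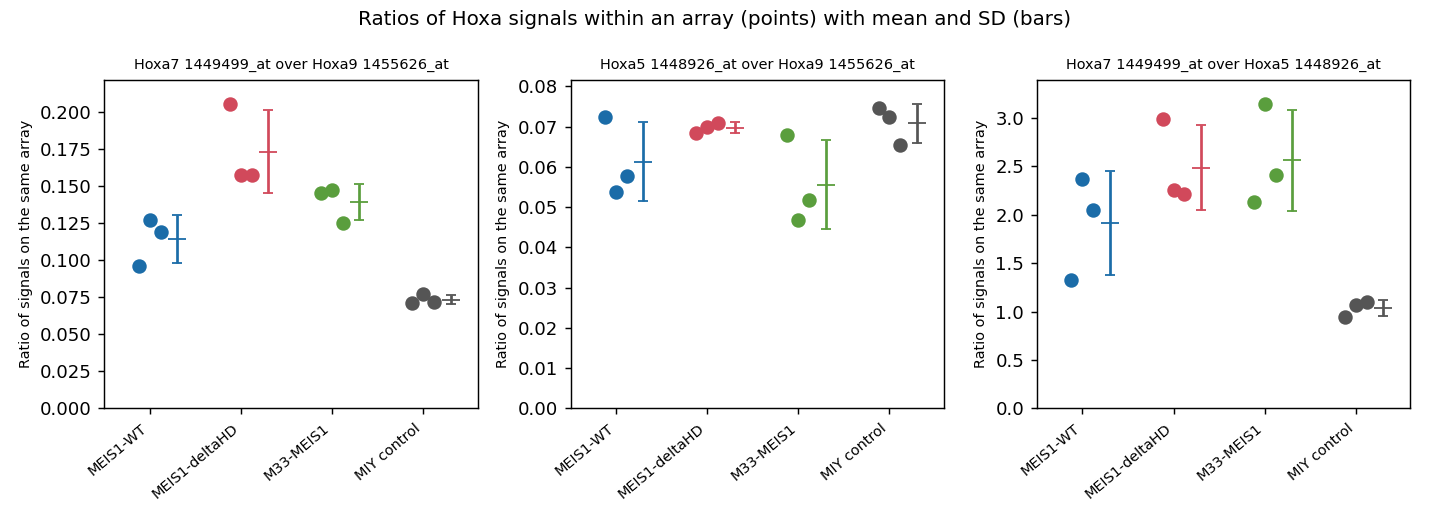
Ratios of Hoxa signals within each array (points, linear axis from 0), with the 3 constructs left of MIY control. Hoxa7 over Hoxa9 is 0.0959 to 0.205 with the constructs, against 0.0709 to 0.0771 in MIY control. Hoxa5 over Hoxa9 overlaps between groups.

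The 4 ways of scaling the arrays gave the same sign for Hoxa7, Hoxa4 1427354_at and Hoxa5 1448926_at in every comparison with control. Some of these values lay at 0, such as Hoxa5 with MEIS1-deltaHD after median scaling (-0.005, adjusted p = 0.984). Hoxa4 with M33-MEIS1 was at 0.02 (adjusted p = 0.956) under the authors' scaling. Hoxa5 passed under all 4 scalings with M33-MEIS1 alone. For Hoxa7 with MEIS1-deltaHD the difference was 0.72 after quantile normalization, 0.84 after 75th percentile scaling and 1.15 after median scaling (adjusted p = 2.94e-05, 1.97e-06 and 1.4e-07). With M33-MEIS1 the values were 0.48, 0.55 and 0.75 (adjusted p = 0.00269, 0.000516 and 0.000156), and with MEIS1-WT 0.38, 0.45 and 0.65 (adjusted p = 0.0147, 0.00284 and 0.000735). Of all calls against control, 42.4% were higher with MEIS1-WT under the authors' scaling, 55% after quantile normalization, 61.1% after 75th percentile scaling and 79.1% after median scaling. With MEIS1-deltaHD these shares were 39.8%, 54.6%, 58.8% and 84.3%, and with M33-MEIS1 they were 40.8%, 53.6%, 60.3% and 81.9%, in the same order of scalings.

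**Figure D4:**
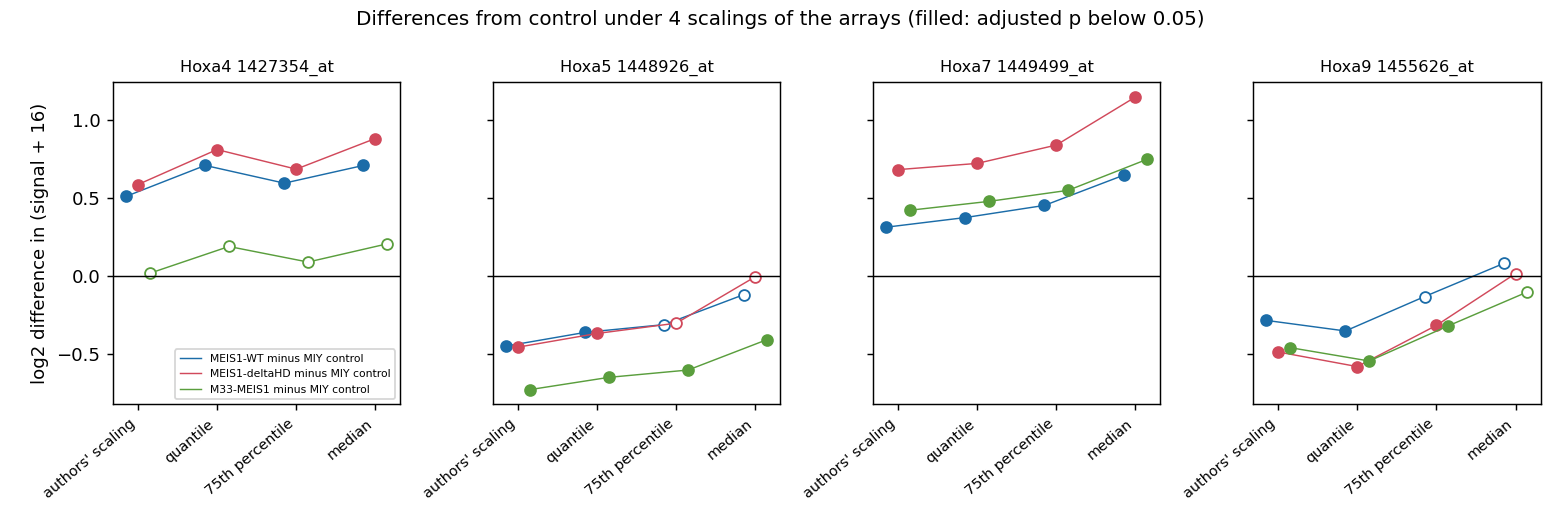
Log2 difference in (signal + 16) from MIY control for 4 Hoxa probe sets under 4 scalings of the arrays, 1 line per construct, with filled points at an adjusted p below 0.05. Hoxa7 stays above 0 and passes throughout. Hoxa9 1455626_at crosses 0 under median scaling with MEIS1-WT (0.08) and MEIS1-deltaHD (0.01), and no construct passes there.

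Hox genes of the other clusters that passed were lower with the constructs under the authors' scaling, Hoxc depending on the scaling. Of 7 kept Hoxb probe sets, 0 passed as higher, while 5 passed as lower for MEIS1-WT, 5 for MEIS1-deltaHD and 6 for M33-MEIS1. Of all probe sets, 17.8% (MEIS1-WT), 20.8% (MEIS1-deltaHD) and 17.1% (M33-MEIS1) passed as lower. The Hoxb medians were -0.76 (MEIS1-WT), -0.76 (MEIS1-deltaHD) and -0.74 (M33-MEIS1). Without MIY control replicate 1 the count with M33-MEIS1 was 3, and after median scaling it was 3 of 7 with each construct, all lower. Hoxb3 1456229_at averaged 80.7 ± 2.54 (MEIS1-WT), 67.8 ± 11.9 (MEIS1-deltaHD) and 72.8 ± 6.17 (M33-MEIS1), and 189.9 ± 9.14 in MIY control. The differences were -1.09 (MEIS1-WT, adjusted p = 2.08e-07), -1.31 (MEIS1-deltaHD, adjusted p = 1.38e-08) and -1.22 (M33-MEIS1, adjusted p = 6.21e-08). Hoxb6 was at -0.99 (MEIS1-WT, adjusted p = 1.62e-05), -1.11 (MEIS1-deltaHD, adjusted p = 3.65e-06) and -1.10 (M33-MEIS1, adjusted p = 5.69e-06). Of 10 Hoxc probe sets, 0 passed as higher, and 6 passed as lower for MEIS1-WT, 5 for MEIS1-deltaHD and 5 for M33-MEIS1, with medians of -0.41 (MEIS1-WT), -0.34 (MEIS1-deltaHD) and -0.41 (M33-MEIS1), but after median scaling 3 of the 10 passed as higher and 2 as lower with MEIS1-deltaHD. The 2 kept Hoxd probe sets did not pass. By these medians the Hoxa members lay nearer 0 than Hoxb and Hoxc, a difference that was not tested. After median scaling the Hoxa medians were 0.11 (MEIS1-WT), 0.12 (MEIS1-deltaHD) and -0.01 (M33-MEIS1), and those of Hoxc -0.08 (MEIS1-WT), -0.07 (MEIS1-deltaHD) and -0.08 (M33-MEIS1). Hoxc was then the nearer of these to 0 with MEIS1-WT and MEIS1-deltaHD. The median of all probe sets was itself 0.12 (MEIS1-WT), 0.17 (MEIS1-deltaHD) and 0.11 (M33-MEIS1) there, and Hoxa lay nearer to it than Hoxc with each construct.

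**Figure D5:**
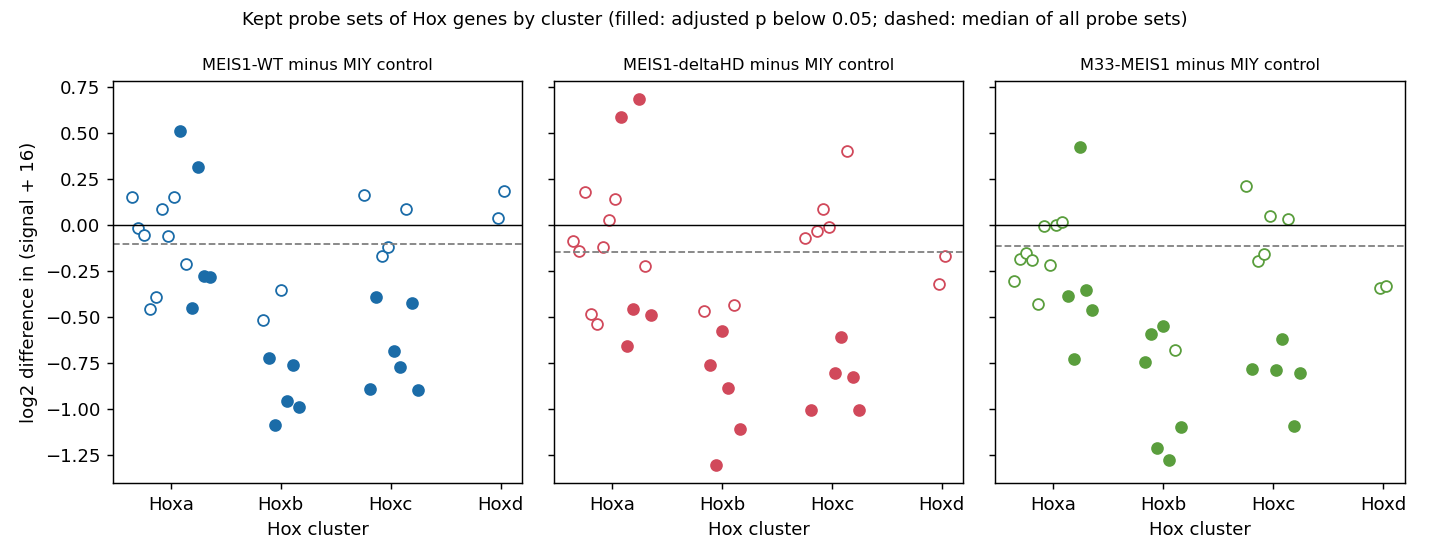
Log2 differences in (signal + 16) from MIY control of every kept Hox probe set, by cluster, under the authors' scaling. Each point is a probe set, filled where it passed. All 7 Hoxb probe sets lie below 0 with each construct, and the 13 Hoxa members lie on both sides of it.

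Genes beside the cluster and genes that act on or with Hoxa proteins were read from lists chosen with earlier results of these data known. The background for the list counts that follow is the share of all probe sets that passed under the authors' scaling. It was 31% (MEIS1-WT), 34.5% (MEIS1-deltaHD) and 28.9% (M33-MEIS1). Of 6 tested genes of the same region, Snx10, a sorting nexin of the flanking DNA, averaged 212 ± 15.3 (MEIS1-WT), 198 ± 23.5 (MEIS1-deltaHD) and 219.7 ± 7.02 (M33-MEIS1), and 401 ± 14.6 in MIY control. Its differences were -0.87 (MEIS1-WT, adjusted p = 1.47e-07), -0.97 (MEIS1-deltaHD, adjusted p = 3.03e-08) and -0.82 (M33-MEIS1, adjusted p = 5.2e-07). The adaptor Skap2 differed by -0.38 (MEIS1-WT, adjusted p = 0.00211), -0.47 (MEIS1-deltaHD, adjusted p = 0.000233) and -0.26 (M33-MEIS1, adjusted p = 0.0361). After median scaling it differed by -0.02 (MEIS1-WT), 0.03 (MEIS1-deltaHD) and 0.10 (M33-MEIS1), none of which passed. With M33-MEIS1 its call was also lost without M33-MEIS1 replicate 1 (-0.21, adjusted p = 0.137) or 2 (-0.20, adjusted p = 0.155) and without MIY control replicate 1 (-0.26, adjusted p = 0.0799) or 3 (-0.16, adjusted p = 0.196). Hoxa13, Evx1, Hibadh and Tax1bp1 did not pass.

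Among 9 tested TALE partners of Hoxa proteins, 2 were higher and 3 lower with MEIS1-WT, 0 and 5 with MEIS1-deltaHD, and 0 and 2 with M33-MEIS1. After median scaling the balance turned, as it did over all probe sets, with 3 higher and 0 lower (MEIS1-WT), 3 and 1 (MEIS1-deltaHD), and 2 and 0 (M33-MEIS1). With MEIS1-WT, 1 was lower without MEIS1-WT replicate 1 or MIY control replicate 1, and 1 was higher without MEIS1-WT replicate 3 or MIY control replicate 3. With MEIS1-deltaHD, 2 were lower without MIY control replicate 2, and with M33-MEIS1, 1 without MIY control replicate 1. Of the mouse Meis1 probe sets, 1450992_a_at differed by -0.37 (MEIS1-WT, adjusted p = 0.0143), -0.69 (MEIS1-deltaHD, adjusted p = 4.17e-05) and -0.62 (M33-MEIS1, adjusted p = 0.000203). After median scaling it differed by -0.04 (MEIS1-WT), -0.23 (MEIS1-deltaHD) and -0.29 (M33-MEIS1), none of which passed. The call with MEIS1-WT was also lost without MEIS1-WT replicate 1 (-0.32, adjusted p = 0.0689) or MIY control replicate 1 (-0.31, adjusted p = 0.0791). No source used here says whether this probe set reads the inserted MEIS1. Values of 1443260_at and 1459423_at, also annotated to Meis1, are not given. Pbx3, a partner of Hoxa9 in leukaemia, was at -0.20 (MEIS1-WT, adjusted p = 0.073), -0.32 (MEIS1-deltaHD, adjusted p = 0.00427) and -0.31 (M33-MEIS1, adjusted p = 0.00624). After median scaling it was at 0.18 (MEIS1-deltaHD, adjusted p = 0.303) and 0.04 (M33-MEIS1, adjusted p = 0.862). The call with M33-MEIS1 was lost without MIY control replicate 1 (-0.25, adjusted p = 0.0526).

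Of 12 tested genes for proteins that keep Hox genes active, 5 were higher with each construct, and 3 were lower for MEIS1-WT, 4 for MEIS1-deltaHD and 4 for M33-MEIS1. With MEIS1-deltaHD, 3 were higher without MEIS1-deltaHD replicate 1 or 2 or MIY control replicate 2 or 3, and with M33-MEIS1, 2 were lower without M33-MEIS1 replicate 1 or MIY control replicate 1. Over the 16 alternatives, 5 to 8 were higher with MEIS1-WT, 3 to 7 with MEIS1-deltaHD and 4 to 5 with M33-MEIS1. The counts of lower genes ranged from 1 to 3 (MEIS1-WT), 0 to 4 (MEIS1-deltaHD) and 0 to 4 (M33-MEIS1), so the balance depends on the setting. Dpy30, a subunit of the complexes that methylate histone H3 at lysine 4, averaged 1441 ± 48.2 (MEIS1-WT), 1550 ± 76 (MEIS1-deltaHD) and 1369 ± 69.2 (M33-MEIS1), and 707.8 ± 50.4 in MIY control. Its differences were 1.01 (MEIS1-WT, adjusted p = 2.47e-10), 1.11 (MEIS1-deltaHD, adjusted p = 5.94e-11) and 0.94 (M33-MEIS1, adjusted p = 1.51e-09). Men1, the scaffold menin, rose with MEIS1-deltaHD (0.43, adjusted p = 0.000728) and M33-MEIS1 (0.41, adjusted p = 0.0014). In each comparison between constructs, 0 of these 12 genes passed, so no difference between constructs was found for Men1. Of 22 tested Polycomb genes, whose products silence Hox clusters, 2 were higher and 4 lower with MEIS1-WT, 3 and 7 with MEIS1-deltaHD, and 2 and 4 with M33-MEIS1. Over all probe sets, 31% (MEIS1-WT), 34.5% (MEIS1-deltaHD) and 28.9% (M33-MEIS1) passed. With MEIS1-WT, 1 Polycomb gene was higher without MEIS1-WT replicate 2. Ezh1, a Polycomb methyltransferase, differed by -0.88 (MEIS1-WT, adjusted p = 1.7e-06), -0.88 (MEIS1-deltaHD, adjusted p = 1.54e-06) and -0.64 (M33-MEIS1, adjusted p = 0.000122), and after median scaling it was at -0.32 with M33-MEIS1 (adjusted p = 0.0869). The direction of the Polycomb list as a whole depends on scaling, as does that of all probe sets. The Polycomb median was -0.10 (MEIS1-WT), -0.18 (MEIS1-deltaHD) and -0.13 (M33-MEIS1) under the authors' scaling, and 0.24 (MEIS1-WT), 0.28 (MEIS1-deltaHD) and 0.16 (M33-MEIS1) after median scaling. The median of all probe sets went from -0.10 to 0.12 (MEIS1-WT), from -0.14 to 0.17 (MEIS1-deltaHD) and from -0.12 to 0.11 (M33-MEIS1).

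Earlier leukaemia work linked 15 of the tested genes to Hoxa9, and with MEIS1-WT 4 of these passed as higher and 6 as lower. The counts were 2 and 10 with MEIS1-deltaHD, and 1 and 10 with M33-MEIS1. After median scaling they were 7 and 3 with MEIS1-WT, 5 and 5 with MEIS1-deltaHD, and 4 and 4 with M33-MEIS1. Over all probe sets that scaling raised the share of calls that were higher. It went from 42.4% to 79.1% (MEIS1-WT), from 39.8% to 84.3% (MEIS1-deltaHD) and from 40.8% to 81.9% (M33-MEIS1). Under the authors' scaling, 1 of the 15 was higher with MEIS1-deltaHD without MIY control replicate 2 or without any 1 of the MEIS1-deltaHD arrays. Some of these genes also passed between constructs. Hlf, a stem cell transcription factor, averaged 432.7 ± 20.3 with MEIS1-WT and 71.9 ± 10.4 with M33-MEIS1, against 196.6 ± 45.3 in MIY control. Its differences from control were 1.10 (MEIS1-WT, adjusted p = 5.3e-07) and -1.26 (M33-MEIS1, adjusted p = 1.03e-07). It differed by -2.36 in M33-MEIS1 minus MEIS1-WT (adjusted p = 1.17e-11). The kinase Pim1 differed by -1.21 (MEIS1-WT, adjusted p = 1.14e-08), -1.06 (MEIS1-deltaHD, adjusted p = 9.66e-08) and -0.74 (M33-MEIS1, adjusted p = 2.03e-05).

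Markers of cell types moved with the constructs, and their part in the Hoxa results was not tested. The summed signal of 14 monocyte and macrophage markers was 744.1 to 935 with MEIS1-WT, 3043 to 3370 with MEIS1-deltaHD and 4857 to 5470 with M33-MEIS1, against 14360 to 16710 in MIY control, and of the 14, 13 passed as lower for MEIS1-WT, 12 for MEIS1-deltaHD and 12 for M33-MEIS1. That of 8 stem and progenitor markers was 6525 to 7158 (MEIS1-WT), 7992 to 8874 (MEIS1-deltaHD) and 3535 to 3872 (M33-MEIS1), against 8358 to 9507 in MIY control. Mycn made up much of that sum, and by gene 5 passed as higher and 2 as lower with MEIS1-WT, 1 and 4 with MEIS1-deltaHD, and 1 and 5 with M33-MEIS1. That of 5 erythroid markers was 3067 to 3105 (MEIS1-WT), 2986 to 3169 (MEIS1-deltaHD) and 3065 to 3396 (M33-MEIS1), against 684.2 to 1044 in MIY control. Nearly all of that was Tfrc, the transferrin receptor, at 3008 ± 21.1 (MEIS1-WT), 3004 ± 84.7 (MEIS1-deltaHD) and 3158 ± 177 (M33-MEIS1), against 789.8 ± 227 in MIY control. It was the 1 erythroid marker that passed as higher with each construct, and 1 passed as lower with MEIS1-WT and 1 with MEIS1-deltaHD. Of 13 neutrophil markers, 0 passed as higher and 7 as lower with MEIS1-WT, 6 and 3 with MEIS1-deltaHD, and 7 and 3 with M33-MEIS1. Of 10 mast cell and basophil markers, these counts were 1 and 7 (MEIS1-WT), 3 and 6 (MEIS1-deltaHD), and 6 and 0 (M33-MEIS1). The sum of 8 general haematopoietic markers was 6046 to 6355 (MEIS1-WT), 6336 to 6650 (MEIS1-deltaHD) and 6600 to 6943 (M33-MEIS1), against 7490 to 8331 in MIY control. Fibroblast markers, of which 6 of 10 were kept, summed to 333.7 to 352.1 (MEIS1-WT), 247.2 to 343.6 (MEIS1-deltaHD) and 268.2 to 315.1 (M33-MEIS1), against 456.9 to 545.4 in MIY control. Most of that came from Thy1 and Pdgfrb, while Col3a1, Lox, Postn and Dcn were not kept. The actin 3′ to 5′ signal ratio, a sign of RNA quality, averaged 1.46 (MEIS1-WT), 1.35 (MEIS1-deltaHD) and 1.38 (M33-MEIS1), and 1.5 in MIY control. That of Gapdh went the other way, at 0.832 (MEIS1-WT), 0.819 (MEIS1-deltaHD) and 0.85 (M33-MEIS1), against 0.783 in MIY control.

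Genes whose signals ran most like a Hoxa probe set over the 12 arrays were ranked by the root mean square gap of centred log2 values. For Hoxa7 the closest was Entr1, with a gap of 0.06. Hoxa9 1455626_at was closest to Dock11, at 0.053, and to Mtdh, at 0.055. Hoxa5 1448926_at was closest to Bbx, at 0.095, and Hoxa4 1427354_at to Lrrc49, at 0.111. The ranking was run for the 6 probe sets of Hoxa4, Hoxa5, Hoxa7 and Hoxa9 that passed a comparison, and no other Hoxa member was among the 3 closest to any of these. With 31726 kept probe sets and only other genes ranked, this absence cannot show whether the Hoxa genes ran together.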

How the data were processed

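The 12 arrays were Affymetrix mouse arrays with 45101 probe sets, of which 64 are array controls and were left out. The deposited values are array intensity, the authors' linear signal per probe set, made with GCOS 1.2 per the submitters' processing notes. Each array had a mean of 100 once 2% of its values were trimmed at either end. The sources used here do not state background or summary settings, and no detection call was used.

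Each probe set was analysed singly as log2(signal + 16). It was kept if 3 or more arrays gave it a signal higher than their 40th percentile (31726 kept). Of all probe sets, 34945 carried 1 gene symbol, 932 several and 9160 none. The model was fitted with limma 3.58.1 (R 4.3.3), using lmFit, contrasts.fit and eBayes with trend, on all 12 arrays in 4 groups, which leaves 8 residual degrees of freedom. P-values are two-sided and adjusted within each of 6 comparisons by Benjamini and Hochberg, with a threshold of 0.05. Tested on simulated data for MEIS1-WT minus MIY control with 31726 probe sets, 68 of 100 changes of 1 and 99 of 100 changes of 2 (log2) were recovered. No other probe set was changed in the simulation, while 9823 passed in the data for this comparison, so the adjustment differed. Changes smaller than 1, such as those of the Hoxa probe sets, were not simulated, so the simulation does not give the sensitivity for them. An exact rank test of 3 against 3 arrays cannot give a two-sided p below 0.1, and precision is limited by how many arrays there are.

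The text covers every Hoxa member probe set. Those given by gene symbol alone are 1449499_at (Hoxa7), 1419602_at (Hoxa2) and 1420414_at (Hoxa11). From other lists it names up to 4 members that passed with the largest difference per comparison, or 2 where none passed, with a gene read by its kept probe set with the highest mean, and Meis1, Pbx3 and Cbx2 always. Hoxb3, Hoxb6 and the neighbours of the cluster fall under this rule. The Hoxa members and all lists were chosen with earlier results of these data known. Alternatives were 1 or 64 added to the signal, no filter, quantile normalization, median scaling, 1 probe set per gene, a replicate block, only the groups compared, no intensity trend and leaving out each array. Scaling to equal 75th percentiles was chosen after seeing the data. Cbx2 did not pass against control, at -0.26 for MEIS1-WT (adjusted p = 0.241), -0.41 for MEIS1-deltaHD (adjusted p = 0.0547) and -0.28 for M33-MEIS1 (adjusted p = 0.206).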

Additional observations from a re-analysis of the deposited data

How the results depend on the processing

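Of 1218 values of single Hoxa probe sets under an alternative, 1092 kept their direction and their side of the threshold, 42 lost a call, 17 gained one and 3 that had passed turned their direction. A further 64 turned their sign without passing under either setting, 12 of them under median scaling, 8 after quantile normalization, 6 under 75th percentile scaling, 1 with log2(signal + 1) and 37 with an array left out. They include Hoxa9 1421579_at (0.258) and Hoxa10 1431475_a_at (0.294) for MEIS1-deltaHD minus MIY control under median scaling. The 3 that had passed were Hoxa9 under median scaling: 0.08 with 1455626_at and 0.074 with 1421579_at for MEIS1-WT, and 0.015 with 1455626_at for MEIS1-deltaHD, each minus MIY control and none passing. The cause was not tested. For MEIS1-WT, 5 Hoxa probe sets passed against control, and 3 without the filter, 3 under median scaling, 2 under 75th percentile scaling and 1 to 5 with an array left out. For MEIS1-deltaHD, 5 passed, and 2 under median scaling. For M33-MEIS1, 5 passed, and 2 under median scaling, 3 under 75th percentile scaling and 3 with 1 probe set per gene, where fewer are tested. For MEIS1-deltaHD minus MEIS1-WT, 0 passed, and 1 after quantile normalization, median scaling or 75th percentile scaling each, 2 in a fit of those groups alone and 0 to 1 with an array left out.

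Over all probe sets, 156 passed in M33-MEIS1 minus MEIS1-deltaHD, and 83 without the filter, 74 under median scaling, 37 without the trend and 62 to 155 with an array left out. In MEIS1-deltaHD minus MEIS1-WT 1436 passed, and 795 without the trend and 913 to 1208 with an array left out. In M33-MEIS1 minus MEIS1-WT 1759 passed, and 1167 without the trend. In MEIS1-WT minus MIY control 9823 passed, and 6545 of 19990 with 1 probe set per gene. The labels state no pairing of arrays by replicate number. No same-numbered correlation of deviations from the group means was above 0.028, and other-numbered ones reached 0.054. Such low values cannot show whether same-numbered arrays shared an experiment. With the replicate number as a block, Hoxa5 1443803_x_at with M33-MEIS1 was at -0.39 (adjusted p = 0.054) and no other Hoxa call moved. Dim probe sets of Hoxa2, Hoxa3, Hoxa4 and Hoxa11 limit what can be read for those genes.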
